A study of Drosophila melanogaster with 4 samples.

Results

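The mitochondrial ribosomal protein genes of Drosophila melanogaster were followed through the first hour of treatment with radicicol, an inhibitor of the chaperone Hsp90. They were taken as all genes whose FlyBase symbol starts with mRpL (large subunit) or mRpS (small subunit) and whose mean was at least 20 counts over the 4 libraries. Of 73 such symbols in the annotation, 70 matched an ID in the count files, and 68 of these passed, out of 7883 measured genes among 14869 IDs. The cells were S2, a line of embryonic origin, grown in Schneider medium at 25 °C and harvested during exponential growth. They received either the solvent DMSO, which the labels put at 0 min, or 40 µM radicicol dissolved in DMSO for 15, 30 or 60 min. There was 1 poly(A) RNA library for each of these 4 conditions, so no value has a replicate error.

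Mitochondria hold their own ribosomes, which translate the few proteins encoded by mitochondrial DNA, nearly all of them core subunits of the respiratory chain. The RNA of these ribosomes is mitochondrial, but every one of their proteins is encoded in the nucleus, made on cytosolic ribosomes and imported. Part of the set descends from bacterial ribosomal proteins and part was gained in mitochondria. In the fly, reduced function of single mitochondrial ribosomal proteins delays development, as known from the genes tko and bonsai.

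Gene counts summed to between 19153476 and 31028233 per library. The DMSO library stood apart from the others, with 44.1% of its reads not aligned against 17.8 to 21.5% in the radicicol libraries. Results of the slope test are therefore also given with it left out of the fit, while library sizes stayed scaled to it. The 9 haemocyte markers, the genes that mark the blood-cell-like identity of S2 cells, each had at least 100 counts in every library and summed to 5341 to 7667 CPM (counts per effective library size, set to a common total). The 7 markers of other tissues summed to 4.78 to 18.5 CPM. Of these the neuronal gene elav had 28 counts in DMSO and 496 at 60 min, while Syt1 and nSyb, also neuronal, had 0 to 1 and 2 to 6 counts. Its part in the results was not tested. RNA in bulk cells is measured as a share, so fewer cells of a kind and less RNA of a kind per cell cannot be told apart. Neither can radicicol and time in culture, since DMSO was sampled at 1 time.

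The family was lower at every radicicol time than in DMSO, and lowest at 60 min. Its 68 transcripts summed to 4890 CPM in DMSO, 3601 at 15 min, 3466 at 30 min and 2332 at 60 min. As a share of all gene counts this was 0.464, 0.381, 0.352 and 0.229%. The sum at 60 min was 2.10-fold lower than in DMSO, a log2 fold of -1.07 (95% counting interval -1.08 to -1.05, which covers counting error only). The summed log2 fold was already -0.44 at 15 min and was -0.50 at 30 min, so the sum changed little between these libraries.

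Per kilobase of exon, the scale on which genes can be compared with each other, the median member had 79.1 CPM per kb in DMSO, 60.1 at 15 min, 57.5 at 30 min and 40.2 at 60 min. The highest was mRpL12 (FBgn0011787), the stalk protein that recruits translation factors to the ribosome, with 207.6, 146.8, 144.3 and 95.9 CPM per kb in the same order. The next by mean level was mRpS7 (FBgn0032236), a protein of the head of the small subunit, with 189.8, 136.2, 133.1 and 86.4 CPM per kb. In both genes the 15 and 30 min libraries lay close together between DMSO and 60 min.

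The 4 that followed were mRpL28, mRpL49, mRpS22 and mRpS21, with 178.6, 190.7, 165.4 and 138.8 CPM per kb in DMSO and 85.7, 63.9, 81.6 and 56.4 at 60 min. The lowest 3 by mean level were mRpS24 (FBgn0039159), mRpL21 (FBgn0036853) and mRpS14 (FBgn0044030). mRpS24 had 12.9 CPM per kb in DMSO, 10.02 at 15 min, 9.41 at 30 min and 9.59 at 60 min. The ratio of the highest to the lowest member was 16.1 in DMSO and 10.002 at 60 min, and mRpL12 and mRpS24 held these places in all 4 libraries. The order of the levels in DMSO and at 60 min had a Spearman rho of 0.90 over the 68 members, which share library and exon lengths. Exons of mRpS24, mRpS21 and mRpS14 overlap other genes over 55.3, 48.0 and 35.8% of their length, and no source used here states the strand setting of the counting, so their counts are uncertain.

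**Figure D1:**
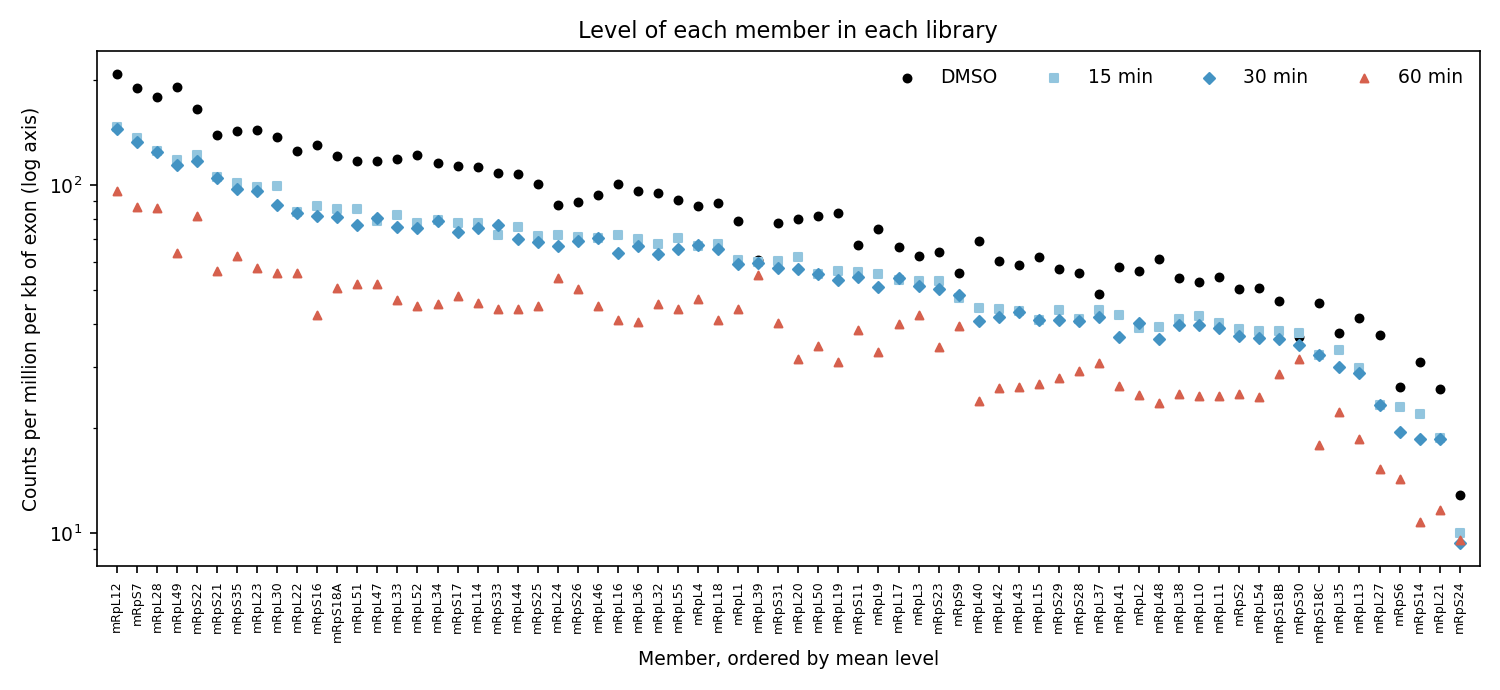
Level of each of the 68 members in the 4 libraries, in CPM per kb of exon on a log axis, with members ordered from left to right by mean level. The 60 min triangles lie lowest in nearly every column, and the spread from mRpL12 to mRpS24 is 16.1-fold in DMSO and 10.002-fold at 60 min.

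The comparison of 15 min with DMSO asks what moved first. The median member had a log2 fold of -0.46, against -0.0041 over all measured genes, and 67 members lay below their DMSO level. With 1 library a condition there is no test of a pair, so a gene was called higher or lower when it differed by at least 2-fold with its counting interval on that side of 0. By this rule no member was lower at 15 min, where 1.23% of all measured genes were, and none was higher, where 1.40% were. The counting interval lay below 0 in 64 members, against 31.5% of measured genes. The 4 others were mRpS30, mRpL39, mRpL35 and mRpS6, the last pair named after their values were seen. The lowest member at 15 min was mRpL49, at -0.69 (-0.77 to -0.62), and the highest was mRpS30, at 0.04 (-0.06 to 0.14). At a looser 1.5-fold, 7 members were lower, where 3.02% of measured genes were. With total counts as the library size, all genes shift up by 0.16 at 15 min, and 65 members, not 67, were below DMSO.

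At 30 min the median log2 fold was -0.50, and all 68 members lay below DMSO (66 with total counts as library size, where mRpL39 was at 0.06 and mRpS30 at 0.03). Again no member was 2-fold lower, where 1.32% of measured genes were, and none 2-fold higher, where 3.36% were. At 1.5-fold 17 were lower, against 5.10% of measured genes, and the counting interval lay below 0 in 66, against 34.9%. The step from 15 to 30 min was small, with a median log2 fold of -0.06, and 11 members had a counting interval below 0, where 15.0% of measured genes did.

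At 60 min the median member was 2.22-fold lower than in DMSO, a log2 fold of -1.15, while the median of all measured genes was -0.02. The 2-fold rule called 49 of 68 members lower, against 12.6% of measured genes. None was higher, where 19.7% of measured genes were. At 1.5-fold 63 were lower, against 27.4%. The counting interval lay below 0 in all 68 members under this scaling, against 42.9% of measured genes. The folds ran from -1.62 in mRpS16 to -0.15 in mRpL39. Comparisons against the 30 min library leave the DMSO counts out, though library sizes were still scaled to DMSO. They gave a median of -0.62, with 67 members lower at 60 min and mRpS24 the exception at 0.03. The interval lay below 0 in those 67, against 39.6% of measured genes. No member was 2-fold lower in that step, where 1.03% were, and 40 were 1.5-fold lower, against 10.9%. The median of 60 against 15 min was -0.67, and 2 members were 2-fold lower, mRpS16 at -1.04 (-1.17 to -0.91) and mRpS14 at -1.03 (-1.25 to -0.81), where 2.90% of measured genes were. In that pair 50 were 1.5-fold lower, against 15.5%, and 67 had an interval below 0, against 41.2%.

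The order DMSO, 15, 30, 60 min from high to low was seen in 58 members, and 54 had the larger part of their log2 difference between 30 and 60 min rather than between DMSO and 30 min. Neither pattern was counted over all measured genes. By single steps, DMSO to 15, 15 to 30 and 30 to 60 min, 67, 60 and 67 members were lower. Of 7883 measured genes 3976, 3897 and 4029 were. Members that were low at 15 min against DMSO also tended to be low at 60 against 30 min, a pair of contrasts with no library in common (Spearman rho 0.64, Pearson r 0.69 over 68 members, whose lengths both contrasts share).

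**Figure D2:**
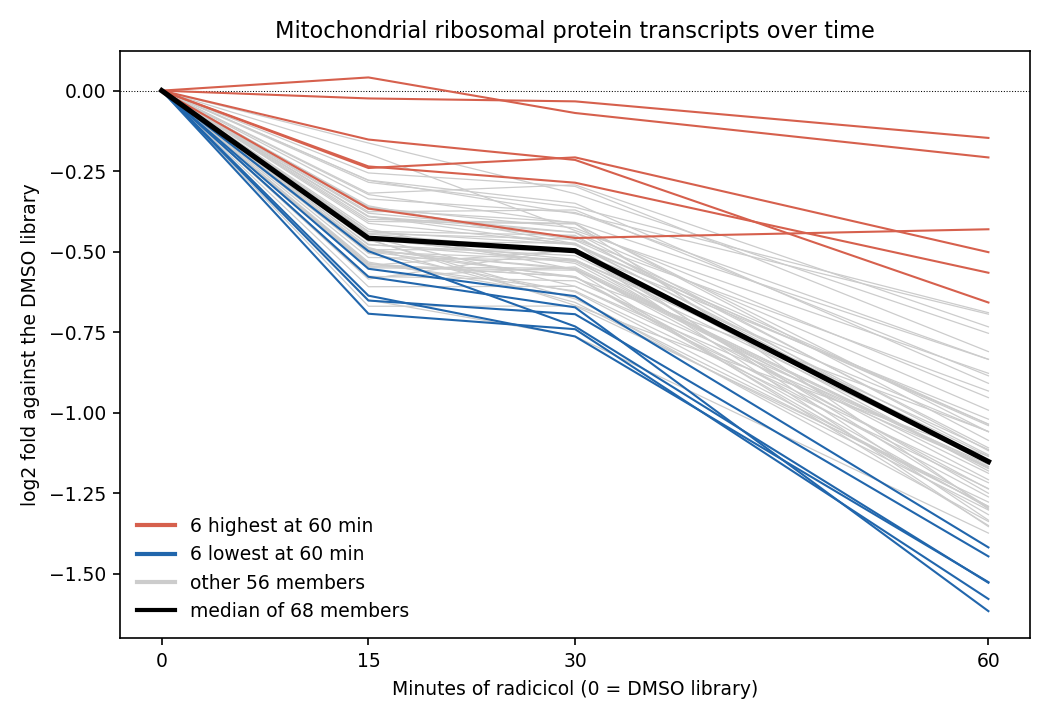
log2 fold against the DMSO library for each member over minutes of radicicol, with the 6 highest members at 60 min in red, the 6 lowest in blue, the other 56 in grey and the median of all 68 in black. The black line is at -0.46 at 15 min, -0.50 at 30 min and -1.15 at 60 min, and a pair of red lines stays near 0 to 30 min.

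A straight line over minutes through the 4 libraries, on the log scale, was the only test with residual degrees of freedom (edgeR quasi-likelihood, 2 degrees of freedom, Benjamini-Hochberg adjustment over all 7883 measured genes, adjusted p below 0.05). It called 65 of 68 members falling and none rising, where 33.8% of measured genes fell and 34.1% rose. Its p-values measure scatter of these libraries about a line, not the spread between cultures. The median slope of the members was -1.08 log2 per 60 min. The 3 that did not pass were mRpL39, mRpS30 and mRpS24. Fits that leave a library out have only 1 residual degree of freedom. Without the DMSO library 63 members fell, against 25.0% of measured genes, and mRpL3 and mRpS9 no longer passed. Without the 60 min library the test called 37, against 7.41% of measured genes.

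Among the proteins at the working centre of the large subunit, the members fell by unequal amounts. mRpL2 (FBgn0036135), which in bacteria helps form the site of peptide bond formation, had 1068 counts in DMSO, 1220 at 15 min, 1306 at 30 min and 788 at 60 min. In deeper libraries these are lower shares, and its log2 fold at 60 min was -1.18 (-1.32 to -1.05), with a slope of -1.09 ± 0.17 (SE) and an edgeR adjusted p of 0.00219. mRpL4 (FBgn0001995), whose bacterial counterpart lines the exit tunnel, had 86.7, 66.8, 67.1 and 46.9 CPM per kb and a log2 fold of -0.89 (-0.99 to -0.78), short of 2-fold.

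mRpL3 (FBgn0030686), a core protein that contacts the RNA near the catalytic centre, was among the 6 highest members at 60 min. It had 62.5 CPM per kb in DMSO, 53.1 at 15 min, 51.3 at 30 min and 42.2 at 60 min, a log2 fold of -0.57 (-0.67 to -0.46). Its slope of -0.53 ± 0.11 (SE) passed, with an edgeR adjusted p of 0.0068. The intervals of mRpL2, mRpL4 and mRpL3 at 60 min did not overlap, so they differed by more than counting error.

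The stalk proteins lay close together at 60 min. mRpL12 had a log2 fold of -1.11 (-1.20 to -1.03) and mRpL10 (FBgn0031231), which anchors the stalk, had -1.09 (-1.23 to -0.94), with overlapping intervals. At 15 min mRpL12 was at -0.50 (-0.57 to -0.43) and mRpL10 at -0.32 (-0.45 to -0.19), which also overlap. Some other large subunit proteins with bacterial counterparts had lower folds, and others had higher ones, mRpL3 and mRpL4 among them. Those named here are from the low end. mRpL19 was at -1.42 (-1.53 to -1.30), mRpL34 at -1.35 (-1.52 to -1.18), mRpL33 at -1.34 (-1.50 to -1.17), mRpL20 at -1.33 (-1.49 to -1.18) and mRpL23, which in bacteria sits at the mouth of the exit tunnel, at -1.32 (-1.42 to -1.21). mRpL30 and mRpL16 were at -1.29 (-1.40 to -1.18) and -1.30 (-1.40 to -1.20) and were among the 5 falling members of lowest p, with edgeR adjusted p of 0.000643 and 0.000662.

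Among the mitochondria-specific proteins of the large subunit lay some of the strongest falls and the least changed member. mRpL49 (FBgn0030433) had 190.7 CPM per kb in DMSO, 118.0 at 15 min, 114.2 at 30 min and 63.9 at 60 min, a log2 fold of -1.58 (-1.67 to -1.49). It was among the 6 highest members by mean level and among the 6 lowest by fold. mRpL40 was at -1.53 (-1.68 to -1.37), mRpL52 at -1.45 (-1.58 to -1.31), mRpL48 at -1.37 (-1.53 to -1.22; 20.8% of its exons overlap another gene) and mRpL44, which carries a fold related to ribonuclease III, at -1.29 (-1.39 to -1.20). mRpL37 was at -0.66 (-0.77 to -0.54) and fell with an edgeR adjusted p of 0.00409.

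mRpL39 (FBgn0036462), whose protein resembles part of threonyl-tRNA synthetase, was the member with the smallest difference at 60 min. It had 1261 counts in DMSO, 2063 at 15 min, 2124 at 30 min and 1905 at 60 min, which is 61.0, 60.0, 59.6 and 55.1 CPM per kb. The first 3 libraries were level and the last was slightly lower, at -0.15 (-0.25 to -0.04). Its slope of -0.15 ± 0.11 (SE) did not pass, with an edgeR adjusted p of 0.263. As a share of the family's counts, which needs no scaling between libraries, mRpL39 made up 1.42% in DMSO (exact 95% interval 1.341 to 1.498) and 2.69% at 60 min (2.57 to 2.81). Its overlap with other genes is 0.264% of its exons.

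In the small subunit, mRpS16 (FBgn0033907), a protein of the body of the subunit in bacteria, was the lowest of all members at 60 min. It had 1292 counts in DMSO, 1440 at 15 min, 1397 at 30 min and 705 at 60 min, or 130.1, 87.2, 81.6 and 42.5 CPM per kb. The 60 min library was 3.07-fold below DMSO (log2 -1.62, -1.75 to -1.48), with a slope of -1.54 ± 0.16 (SE) and an edgeR adjusted p of 0.000719. Its share of the family's counts went from 1.45% (1.38 to 1.53) in DMSO to 0.994% (0.922 to 1.07) at 60 min. mRpS14, at -1.53 (-1.75 to -1.30), and mRpS18C, at -1.35 (-1.57 to -1.14), were the other small subunit members among the 12 lowest.

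mRpS7 was 2.20-fold lower at 60 min (log2 -1.14, -1.21 to -1.06). mRpS29 (FBgn0034727), a GTP-binding protein known in human cells as DAP3, was at -1.04 (-1.15 to -0.93), mRpS22 at -1.02 (-1.09 to -0.95) and mRpS21 at -1.30 (-1.43 to -1.17). mRpS9 (FBgn0037529), whose bacterial counterpart reaches toward the tRNA in the ribosome, was at -0.50 (-0.61 to -0.39), with an edgeR adjusted p of 0.0167 and 25.1% of its exons overlapping another gene. With time taken as the order of the libraries, mRpS9 was the 1 falling member that no longer passed.

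mRpS30 (FBgn0030692), named for the small subunit although its human counterpart has been placed in the large one, had 36.5 CPM per kb in DMSO, 37.6 at 15 min, 34.8 at 30 min and 31.6 at 60 min. Only the 60 min library was clearly below DMSO, at -0.21 (-0.31 to -0.11), and the slope of -0.24 ± 0.11 (SE) did not pass (edgeR adjusted p = 0.105). Its share of the family's counts was 1.55% (1.47 to 1.64) in DMSO and 2.82% (2.70 to 2.94) at 60 min. mRpS24 had the fewest counts of the family, 141, 182, 177 and 175, and its log2 fold of -0.43 (-0.76 to -0.10) has a wide interval. Its edgeR adjusted p for the slope was 0.214.

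**Figure D3:**
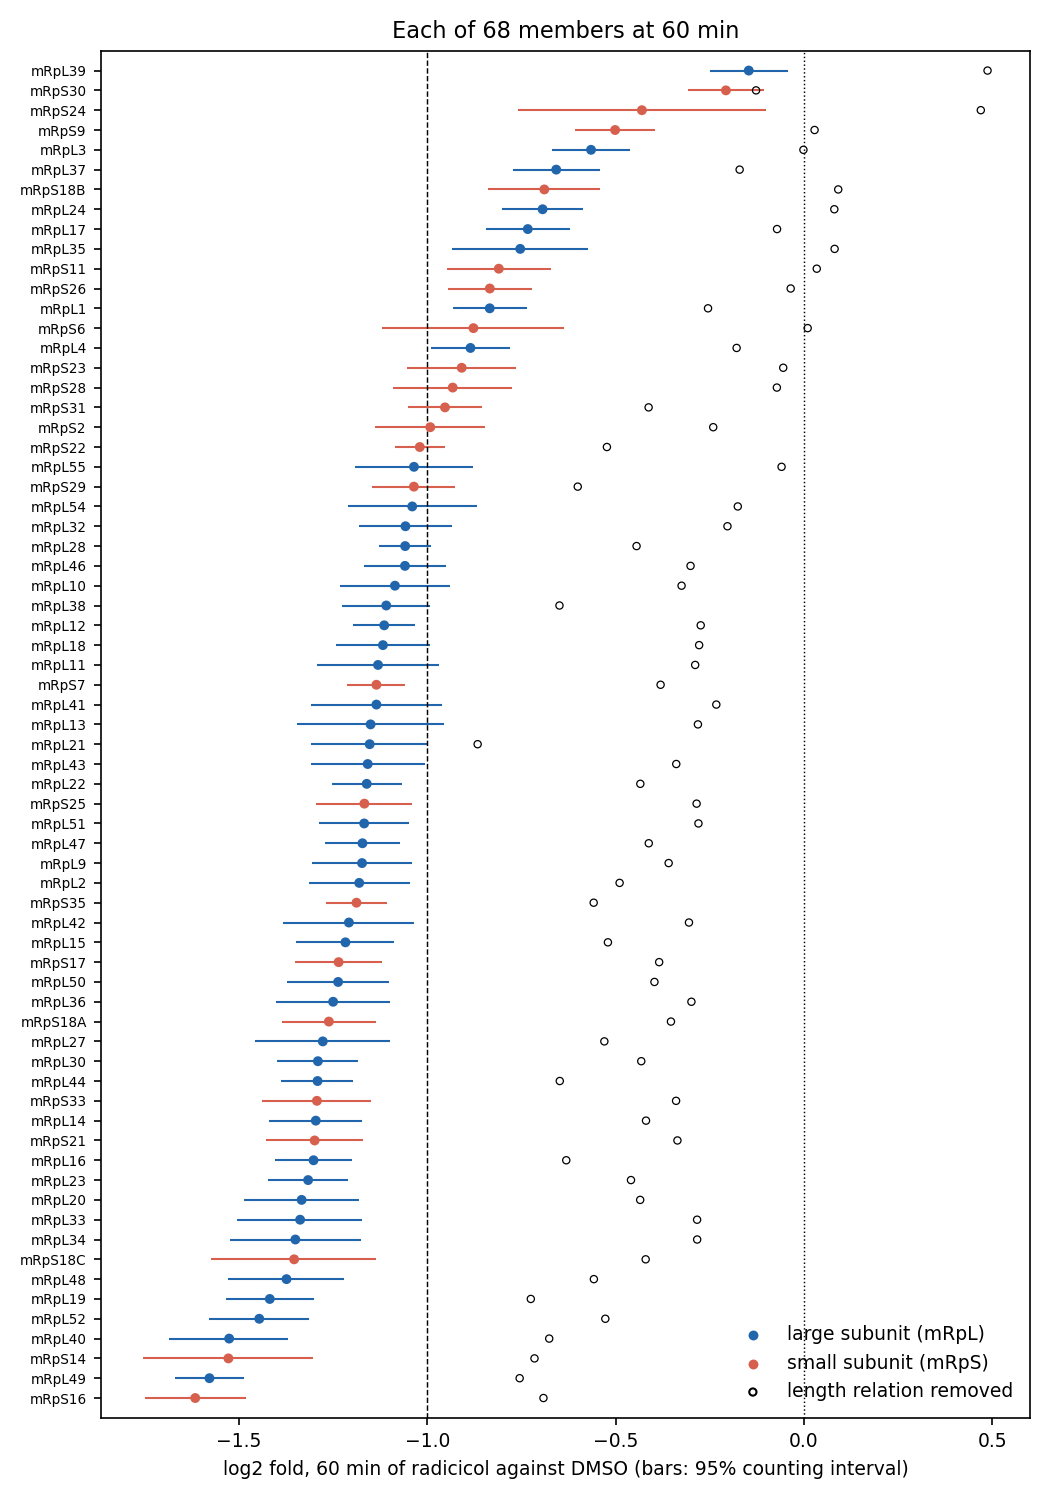
log2 fold at 60 min against DMSO for each of the 68 members, ordered from highest at the top to lowest at the bottom, with 95% counting intervals as bars, large subunit symbols in blue and small subunit symbols in red; open circles give the same value with the relation to exon length removed. The dashed line marks 2-fold lower, which 49 members pass, and the top row is mRpL39 at -0.15.

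Values by subunit are given side by side, with no test of their difference. At 60 min the median log2 fold was -1.16 over 45 large subunit members, of which 37 were 2-fold lower, and -1.02 over 23 small subunit members, of which 12 were. By the slope test 44 and 21 fell. Of all measured genes 12.6% were 2-fold lower and 33.8% fell. Large subunit members made up 66.1% of the family's counts in DMSO (65.7 to 66.4) and 64.5% at 60 min (64.2 to 64.9). Small subunit members made up 33.9% in DMSO (33.6 to 34.3) and 35.5% at 60 min (35.1 to 35.8). Most of that step was mRpS30: with it left out of the family the small subunit share was 32.9% (32.6 to 33.2) and 33.6% (33.2 to 33.9). Members were also classed by symbol number alone, not by sequence, as having a bacterial counterpart (42) or as mitochondria-specific (26). Both classes had a median of -1.15, with 29 and 20 members 2-fold lower.

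Exon length went along with the fold across the measured genes, and the family is short. Its exons had a median of 778.5 bases (327 to 2078). Among measured genes outside both ribosomal families, respiratory chain genes included, the median log2 fold at 60 min was -1.03 under 500 bases, -0.93 from 500 up to 750, -0.79 from 750 up to 1000, -0.61 from 1000 up to 1500 and 0.32 from 1500 bases. In the same bins the 6, 26, 16, 18 and 2 members had medians of -1.30, -1.17, -1.15, -1.03 and -0.68. The members' median was lower than that of other genes in each bin. The last bin has no upper limit and sets 2 members beside 4880 other genes, so lengths are not matched in it. From 500 up to 750 bases 80.8% of members and 45.5% of 319 other genes were 2-fold lower, and 96.2 and 73.7% fell by the slope test. What links length and fold in these libraries was not tested.

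Once the dependence of the fold on exon length, taken over all genes, was subtracted (a lowess curve for each library), the members' median log2 fold was -0.13 at 15 min, -0.17 at 30 min and -0.33 at 60 min. Then 60 of 68 members were still below 0 at 60 min, where 3689 of the 7219 genes with a length were. None was past 2-fold, where 315 of those genes were 2-fold lower and 690 were 2-fold higher. By the slope test 43 members fell and 1 rose, against 27.0 and 26.8% of the genes with a length. The length relation alone gave a median of -0.82 for genes of these lengths at 60 min. On this scale mRpL21, long for the family with 1696 bases, was lowest at -0.87. mRpL39 was highest at 0.49 and was the member that rose, with an edgeR adjusted p of 0.00534. mRpL3 was at 0.00 and mRpS9 at 0.03, near the curve for their length. mRpS30, the longest member with 2078 bases, was at -0.13.

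Length also varied with the fold at 60 min inside the family (Spearman rho 0.43 over 68 members), while the share of overlapping exons did not (rho 0.00). Mean level per kb varied with it too, in the other direction (rho -0.31). At 15 min the rho was 0.25 for length and -0.37 for level. The 6 highest members at 60 min had a median exon length of 1268 bases and 4 exons, against 745 bases and 2 exons in the 6 lowest. The other 56 members were like the lowest, with 745.5 bases and 2 exons. The medians for the 5 chromosome arms ran from -1.07 to -1.29.

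Cytosolic ribosomal protein genes, which are of like length but code for the ribosome that makes nearly all cell protein, had nearly the same values. The 73 measured ones, with a median of 916 bases, had median log2 folds of -1.14 at 60 min, where 51 were 2-fold lower and 72 fell by the slope test. Without the DMSO library 60 fell, and with length removed 42 did. The family medians differed by -0.01, and the summed log2 folds were -1.07 for the mitochondrial and -1.06 for the cytosolic family. Their levels are far apart, with a median of 4131 CPM per kb in DMSO for the cytosolic genes and 79.1 for the mitochondrial ones. In the 5 length bins the cytosolic medians were -1.23, -1.22, -1.18, -1.04 and -0.73. With length removed the medians were -0.38 and -0.33. RpS19a, RpS28b and RpL36A, the cytosolic genes of lowest slope p, were at -1.16, -1.42 and -1.49. At 15 min the sums were at -0.50 for the cytosolic and -0.44 for the mitochondrial family. From 15 to 30 min they were at 0.00 and -0.06. Without the 60 min library the slope test called 6 of 73 cytosolic genes and 37 of 68 mitochondrial ones falling, where 7.41% of measured genes were. The median slopes in that fit were close, at -1.05 log2 per 60 min for the cytosolic and -0.99 for the mitochondrial family. The difference between the families was not itself tested.

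**Figure D4:**
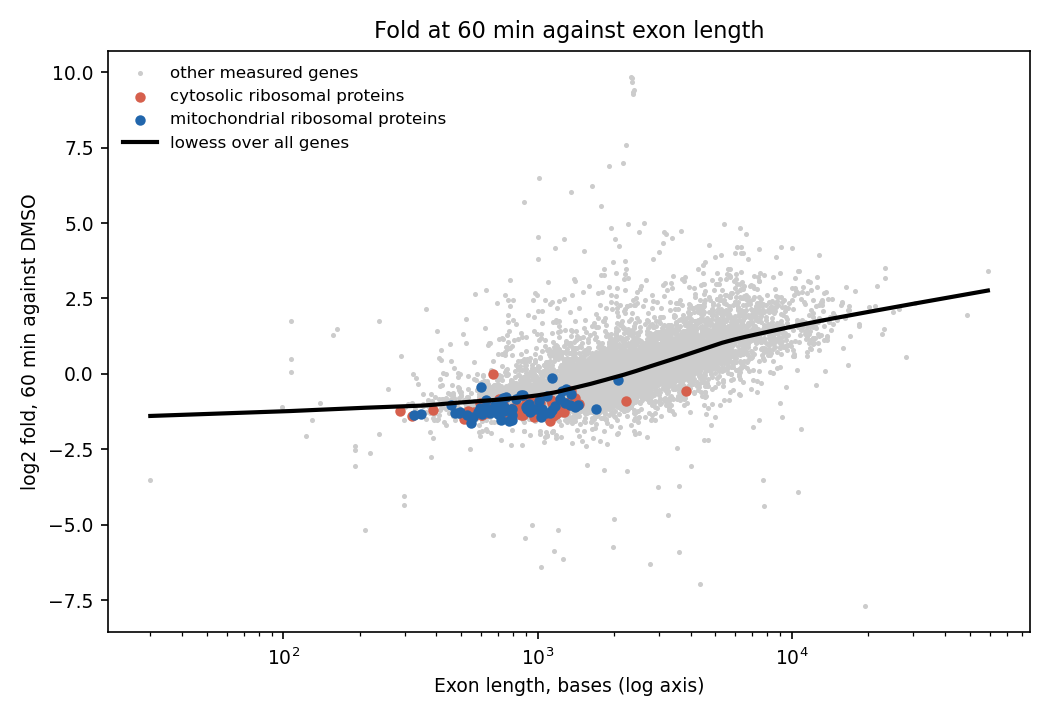
log2 fold at 60 min against DMSO plotted against exon length in bases (log axis) for measured genes with a length and with counts in both libraries, with mitochondrial ribosomal protein genes in blue, cytosolic ones in red, other genes in grey and a lowess curve over all genes in black. Both coloured groups lie together at the short end and mostly below the curve, with family medians of -1.15 and -1.14.

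Other nuclear genes of mitochondrial translation were counted from lists of the pathway, and their slope counts read against the 33.8% of all measured genes that fell (25.0% without DMSO, 27.0% with length removed). The 3 mitochondrial ribosomal proteins with other symbols all fell, with and without the DMSO library, and 2 did with length removed. tko, the counterpart of the bacterial S12 protein, had 58.5, 40.6, 40.9 and 24.6 CPM and a log2 fold at 60 min of -1.25 (-1.39 to -1.12). bonsai, the counterpart of S15, was at -0.96 (-1.06 to -0.86). CRIF, a protein of the large subunit, was at -1.44 (-1.55 to -1.33). Of 8 measured translation factors 6 fell and none rose, with a median of -0.77. Without DMSO 6 fell, and with length removed 5 did. The elongation factors mEFTs, mEFTu2 and mEFTu1 were at -0.78, -0.76 and -0.73.

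Of 15 mitochondrial aminoacyl-tRNA synthetases, the enzymes that charge tRNA, 9 fell and 1 rose. Without DMSO 6 fell, and with length removed 10 did. Their median at 60 min was -0.51, and -0.48 with length removed, beside -1.15 and -0.33 for the ribosomal proteins, whose genes are shorter. SerRS-m, ProRS-m and AsnRS-m were at -1.15, -1.18 and -1.17, while AspRS-m, named after its value was seen, rose, at 0.86 (0.77 to 0.94), and was at 0.05 with length removed. All 10 genes of mitochondrial gene expression and ribosome assembly fell, with a median of -0.80, but 7 did without the DMSO library and 5 with length removed. Among them rswl, mldr and mTTF, a mitochondrial transcription termination factor, were at -1.28, -1.49 and -0.98.

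The nuclear respiratory chain subunits, which join the products of mitochondrial ribosomes in the inner membrane, had values near those of the ribosomal proteins. Of 66, 59 fell and 1 rose, where 33.8 and 34.1% of measured genes did. At 60 min 40 were 2-fold lower, against 12.6% of measured genes, and the median was -1.04. Without DMSO 53 fell, against 25.0%. With length removed 42 fell, against 27.0%, and the median was -0.40. Then 1 was 2-fold lower, where 315 of 7219 genes with a length were. ND-MWFE, COX7B and COX7C, of complexes I and IV, were at -1.25, -1.14 and -1.34. From 500 up to 750 bases their median was -1.21, beside -1.17 for the mitochondrial ribosomal proteins. The gene that rose was ATPsynbetaL, a paralog of an ATP synthase subunit, at 0.72 (0.51 to 0.94), named after its value was seen.

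Transcripts of the mitochondrial genome itself were spread more widely. Of 14 measured, 5 fell and 1 rose, and the median log2 fold at 60 min was -0.08, a share falling near that of all measured genes. Without DMSO the counts were again 5 and 1. With length removed they turned, to 1 falling and 8 rising, with a median of 0.55. The RNAs of the ribosome these proteins join were both lower than in DMSO. mt:lrRNA, the large subunit RNA, had 29240, 25739, 26536 and 17446 CPM (-0.75, -0.75 to -0.74), and mt:srRNA, the small subunit RNA, with few counts in poly(A) RNA, had 17.2, 6.71, 6.539 and 3.32 CPM (-2.37, -2.71 to -2.04). mt:CoII, a subunit of complex IV, was at -1.06 (-1.08 to -1.03). The 3 fell with edgeR adjusted p of 0.00334, 0.00294 and 0.00327. With length removed mt:srRNA still passed (edgeR adjusted p = 0.00956), while mt:lrRNA and mt:CoII did not (0.0772 and 0.205). The gene whose counts rose, mt:ATPase8, had only 22 counts in DMSO and 103 at 60 min and was named after its value was seen. The other ATPase gene of this list, mt:ATPase6, did not rise, with a slope of -0.34 (edgeR adjusted p = 0.109). With length removed its slope was 0.48 (edgeR adjusted p = 0.0122).

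**Figure D5:**
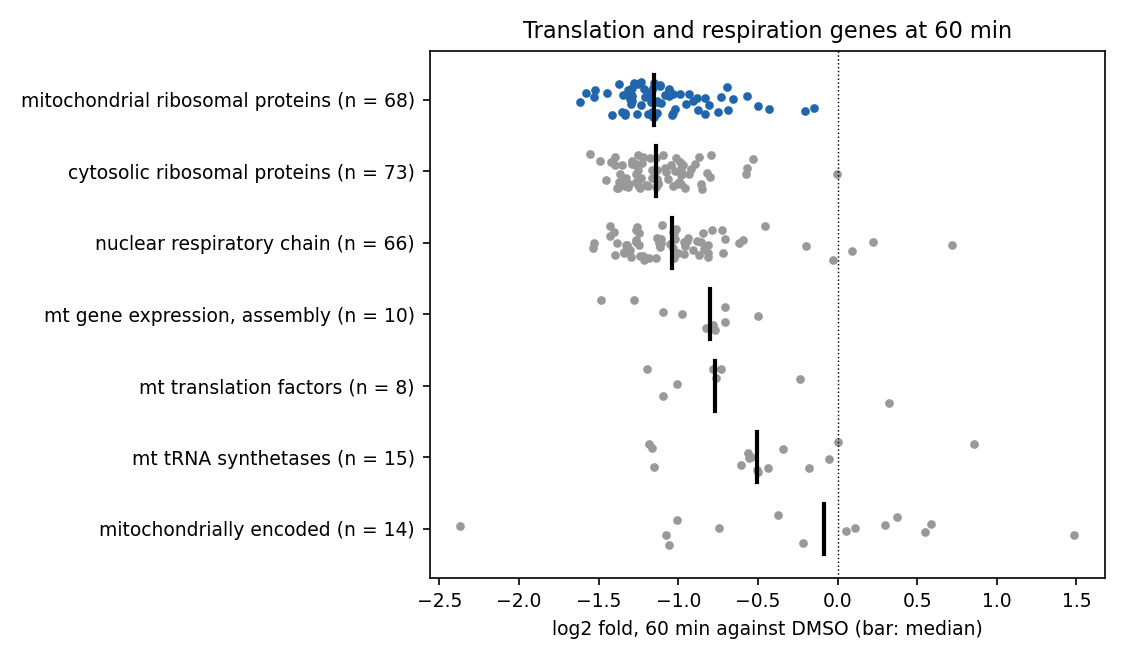
log2 fold at 60 min against DMSO for each gene of 7 lists, 1 dot a gene with a vertical bar at the median (vertical scatter has no meaning); mt stands for mitochondrial. The upper 3 rows have medians of -1.15, -1.14 and -1.04, and the mitochondrially encoded row is spread around -0.08.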

How the data were processed

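The authors deposited raw read counts per FlyBase gene, 1 file for each of 4 libraries, without normalisation. Bowtie, HTSeq and build dm3 are named in the submitters' processing notes. No source used here states their versions, the strand setting or the annotation. Symbols and exon lengths were read from a newer annotation than dm3, so no coordinates are printed; 91.6% of measured genes had a length. Sequences of the members were not used here.

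Counts were scaled by TMM (edgeR 4.0.16 in R 4.3.3) computed on the genes averaging 20 counts or more. The DMSO library was the reference of this scaling, also where DMSO was left out of a comparison or fit. Folds of a pair carry exact 95% Clopper-Pearson counting intervals (scipy 1.17.1) and no p. Slopes over minutes were tested with edgeR's quasi-likelihood test, with DESeq2 1.42.0 as an alternative. The edgeR test was first run on simulated counts in which few genes changed, along straight lines. In these libraries many more genes moved, so that run is no check of the calls made here. The SE printed with a slope was worked back from the edgeR test, as the slope's size over the square root of its F statistic. The length relation was a lowess with span 0.3. Members, lists and tests were chosen with earlier results of these data known. Members were named by level (6 highest, 3 lowest), by fold at 60 min (6 at each end), by the 2-fold rule (12 lowest), by slope p (5 lowest) and by role. In other lists the 3 genes of lowest slope p were named, plus tko and bonsai. Alternatives were other library sizes, count filters, time scales, left-out libraries, a 1.5-fold rule and removal of the length relation.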

Additional observations from a re-analysis of the deposited data

How the results depend on the processing

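No paired analysis was possible because each condition has 1 library and the labels carry no replicate numbers. The slope test called the same 65 members falling with RLE size factors, with total counts, with TMM without the 50 most abundant and the heat shock genes, with mean counts of at least 1 or 100, with DESeq2, and without the 15 or the 30 min library. It called 37 without the 60 min library, and 43 falling and 1 rising with the length relation removed, all 43 among the 65. With the length relation removed, 0 members were 2-fold lower at 60 min against DMSO, where 315 of 7219 genes with a length were. For 60 against 15 min 0 members were, where 155 of these genes were. The median log2 folds became -0.13, -0.17 and -0.33 at 15, 30 and 60 min, and the difference of the family medians went from -0.0137 to 0.0529. With a 1.5-fold rule 7 members were lower at 15 min, 17 at 30 min, 50 for 60 against 15 min and 40 for 60 against 30 min. Total counts as library size gave medians of -0.30, -0.40 and -1.11 and 4 members 2-fold lower for 60 against 15 min, and RLE gave -1.13 at 60 min. Of the values of members named by rule, 98 kept their side of the 2-fold rule and 26 did not. These were every called one with the length relation removed, plus mRpS22 (-0.97) and mRpS29 (-0.99) with total counts. At 60 min mRpL39 (0.49), mRpS24 (0.47) and mRpS9 (0.03) lay above 0 with the length relation removed. No other member named by rule did under any of these settings. The pair named after their values were seen, mRpL35 (0.08) and mRpS6 (0.01), also lay above 0 with the length relation removed. The 1 library per condition limits every pair to counting error.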

Other observations

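Outside the 68, mRpS10 (FBgn0038307), a small subunit gene with no overlap with other genes, had only 3, 9, 8 and 12 counts in DMSO and at 15, 30 and 60 min and was below the count filter. The next lowest member, mRpS24, had 141 to 182 counts. mRpL53 (FBgn0050481), whose exons lie wholly within other genes, had 0 counts in all 4 libraries.

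Of 5 measured regulators of mitochondrial biogenesis, 4 rose and none fell by the edgeR slope test, where 34.1% of measured genes rose. The count was also 4 without the DMSO library and with the length relation removed. These counts were not matched gene by gene, and ewg lay below 0 with the length relation removed. srl, the fly counterpart of PGC-1, had 86.9 CPM in DMSO, 107.9 at 15 min, 109.6 at 30 min and 185.3 at 60 min, a log2 fold of 1.09 (1.01 to 1.17). ewg, the counterpart of NRF-1, was at 1.14 (0.91 to 1.37), and the transcription factor gene foxo at 1.12 (0.936 to 1.298). These are long genes, and with the length relation removed the log2 folds at 60 min were 0.22 for srl, -0.14 for ewg and 0.39 for foxo.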
